A study of Mus musculus with 6 samples.

Results

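The BCL2 family controls whether the outer mitochondrial membrane stays closed, and its mRNAs were followed here in mouse embryonic fibroblasts (MEFs) with and without depletion of CNOT3, a subunit of the CCR4-NOT deadenylase complex that shortens poly(A) tails. The set was fixed by name as 10 genes, and every probe set assigned to only 1 of these symbols was read. Of the 10 genes, 9 were measured, by 29 of 45037 probe sets, and they are 9 of 18193 named genes. Bax was not analysed here.

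Members of the family fall into 3 kinds. The BH3-only proteins sense stress and start the process, the effectors BAX and BAK form the pore through which cytochrome c leaves, and the survival proteins BCL2, BCL-XL and MCL1 hold both of the others in check. In fibroblasts the balance between these kinds sets how readily a cell enters mitochondrial apoptosis. Actinomycin D (Act. D) blocks transcription, so the signal that is left after it reflects how much of each mRNA remained.

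The CNOT3-depleted MEFs (CNOT3KD) were primary MEFs with loxP-flanked Cnot3 alleles infected with a retrovirus that expresses Cre, and the control MEFs carried the same alleles and received a mock retrovirus, although the labels call them wild type. Both were selected in puromycin for 2 days, as populations and not as clones, and each was measured untreated (0 h) and at 6 and 12 h of Act. D. Each of the 6 conditions has 1 Affymetrix mouse array, so there is no replicate to check a difference against and neither errors nor p-values can be given. The precision is limited by the number of arrays.

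Cnot3 itself had signals of 239.6, 128 and 82.9 in CNOT3-depleted MEFs (at 0, 6 and 12 h), against 436, 193 and 198 in control MEFs, which is 1.82-fold lower at 0 h. A dimmer Cnot3 probe set had 227, 90.7 and 92.6 in CNOT3-depleted MEFs, against 204, 201 and 279 in control MEFs. It was 1.11-fold higher in CNOT3-depleted MEFs at 0 h, and lower after Act. D. The labels and methods do not say which part of the gene these probe sets read, and cells that escaped deletion and cells with less Cnot3 mRNA each cannot be told apart in bulk RNA. The trimmed mean signal was between 494 and 497 on all 6 arrays, so a percentage left is relative to the mRNA that remained and can exceed 100%. The 25th percentile of an array, under which a signal is called near background, lay between 13.6 and 18.8 in CNOT3-depleted MEFs and between 15.0 and 19.8 in control MEFs. Of 9 measured fibroblast markers, 0 differed by more than 1.5-fold at 0 h, and their summed signal was 114578 to 122098 in CNOT3-depleted MEFs and 109306 to 176998 in control MEFs. Epithelial markers moved with the depletion, since 5 of 8 were more than 1.5-fold higher (Krt8, Krt14, Krt18, Krt19 and Cdh1) and 1 lower (Cldn4), with sums of 2437 to 2872 in CNOT3-depleted MEFs and 1017 to 1275 in control MEFs. Among 11 leukocyte markers 3 were higher (Cd68, Cd14 and Tyrobp) and 2 lower (Itgam and Cd79a), with sums of 3687 to 5054 in CNOT3-depleted MEFs and 2503 to 5165 in control MEFs. Among 7 endothelial markers 3 were higher (Tek, Tie1 and Esam) and 1 lower (Cdh5), with sums of 349.5 to 409.6 in CNOT3-depleted MEFs and 263 to 397 in control MEFs. Of these markers, Tie1 was near background on all 6 arrays and 0 others were. Only 7 leukocyte, 4 epithelial and 1 endothelial markers reached the median 0 h signal of all probe sets, against all 9 fibroblast markers. Beside these counts, 19.5% of all 18193 genes passed the same limit upwards and 15.7% downwards. The leukocyte, epithelial and endothelial lists are short. With 1 array per condition, no test can set their counts apart from these shares. The part of these markers in the results below was not tested.

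Bid and Mcl1 stood out from the rest of the family after Act. D, and Bcl2 at 0 h. In CNOT3-depleted MEFs Bid kept 82.5% and 82.3% of its 0 h signal at 6 and 12 h of Act. D, while control MEFs kept 33.2% and 8.88%. Mcl1 kept 33.2% and 24.1% in CNOT3-depleted MEFs, against 8.11% and 10.5% in control MEFs. The signal of Bcl2 was 2.18-fold lower in CNOT3-depleted MEFs before Act. D. For the other 6 genes, each at its brightest probe set, the fraction left in CNOT3-depleted MEFs was less than 2 times, and more than 0.5 times, that in control MEFs at both times.

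**Figure D1:**
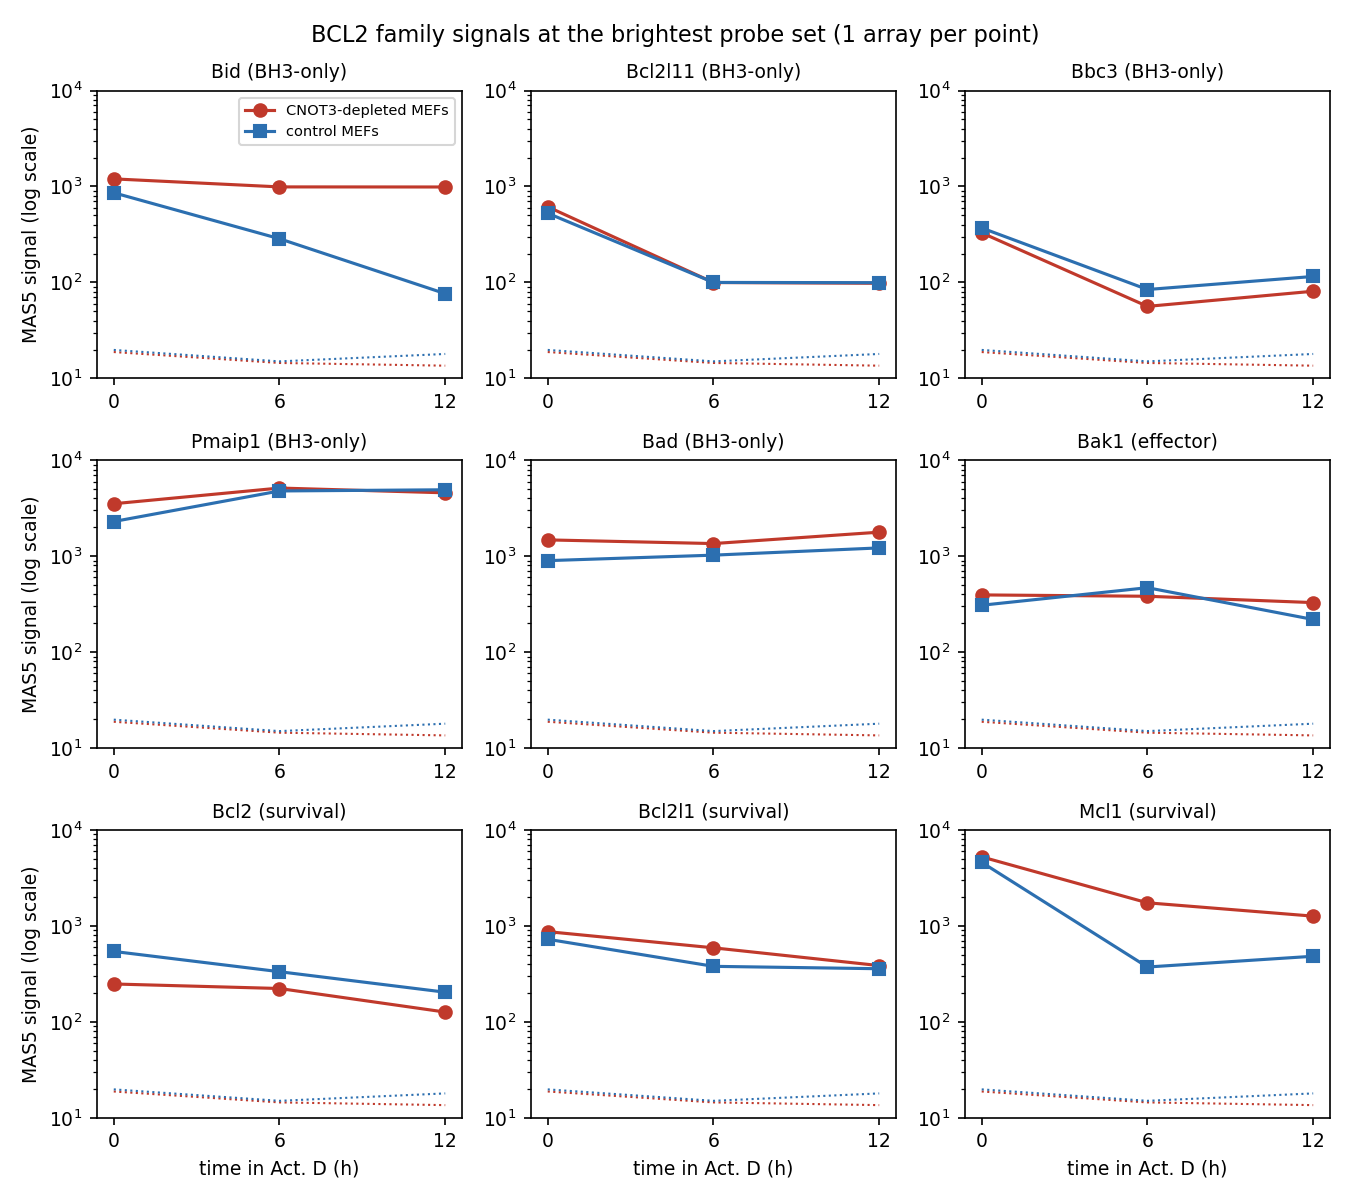
MAS5 signal on a log scale against time in Act. D (h) for the brightest probe set of each of the 9 genes, with CNOT3-depleted MEFs as red circles and control MEFs as blue squares, each point 1 array, and dotted lines for the 25th percentiles. The lines of Bid part after 0 h and reach 987 in CNOT3-depleted MEFs and 76.4 in control MEFs at 12 h, those of Mcl1 part by 6 h, and those of Bcl2 are apart from 0 h on.

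The BH3-only genes are taken in turn, beginning with Bid, whose protein is cut by caspases at death receptors and then carries the signal to mitochondria. At its brightest probe set (1417045_at) the Bid signal was 1199, 989 and 987 at 0, 6 and 12 h in CNOT3-depleted MEFs, against 859.6, 285 and 76.4 in control MEFs. CNOT3-depleted MEFs were thus 1.40-fold higher at 0 h, and the difference was wider after Act. D, at 3.47-fold and 12.9-fold. Another probe set for Bid (1448560_at) had 268, 230.4 and 218 in CNOT3-depleted MEFs, against 212, 20.3 and 17.9 in control MEFs. Its control signal was near background at 12 h, where at most 8.46% was left, against 81.1% in CNOT3-depleted MEFs, so that the signal was at least 12.1-fold higher. The remaining probe set (1447873_x_at), whose suffix marks probes that can match other transcripts, had 155, 206 and 126 in CNOT3-depleted MEFs, against 112, 47.1 and 41.7 in control MEFs. In all 3 probe sets the order of the cultures was the same at each time, and the CNOT3-depleted signal stayed at 81.1% or more of its 0 h level while the control signal did not exceed 42.2%.

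A gene was called stabilized under 3 conditions. Its mean log2 signal at 0 h had to reach the median of all probe sets, its 6 h to 0 h ratio in CNOT3-depleted MEFs had to lie between 0.5 and 2.0, and its fraction left had to reach 2.0 times the control fraction at 6 h and at 12 h. Of the 9 members, all of which reached that median, 1 met this rule, namely Bid, and among all 11062 such genes 10.6% did. With the cultures exchanged 0 of the 9 met it, against 0.479% of all genes. Averaged over 6 and 12 h, the fraction left in CNOT3-depleted MEFs over that in control MEFs on the log2 scale, called the log2 stabilization below, was 2.26 for Bid, and 3.88% of the 11062 genes had a higher value. At its other probe sets the log2 stabilization of Bid was 3.22, with the 12 h control signal just under the near-background level, and 1.39, and both met the rule. Under quantile normalization the brightest probe set kept 87.5% and 90.6% in CNOT3-depleted MEFs, against 48.7% and 10.9% in control MEFs, so that it missed the 2.0-fold limit at 6 h.

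Bcl2l11, which encodes BIM, an activator of the effectors, lost most of its signal in both cultures at its brightest probe set (1435448_at). The signal was 614, 99.8 and 98.0 in CNOT3-depleted MEFs at 0, 6 and 12 h, against 526, 99.98 and 99.4 in control MEFs. As deposited, the cultures were 1.17-fold apart at 0 h and level afterwards, with 16.2% and 15.96% left in CNOT3-depleted MEFs, against 19.0% and 18.9% in control MEFs. Under ribosomal protein scaling, in which each array is divided by its ribosomal protein signals, CNOT3-depleted MEFs were 1.42-fold and 1.60-fold higher at 6 and 12 h and kept 14.9% and 14.0%, against 12.3% and 10.3% in control MEFs, which turns the order. Another probe set (1456005_a_at) had 612, 58.1 and 49.6 in CNOT3-depleted MEFs, against 637, 112 and 125 in control MEFs, and was 2.52-fold lower in CNOT3-depleted MEFs at 12 h. For 1435449_at the order changed with time, with 305, 51.0 and 18.9 in CNOT3-depleted MEFs, against 248, 27.4 and 65.3 in control MEFs. The dimmer 1426334_a_at had 106, 69.6 and 58.3 in CNOT3-depleted MEFs, against 95.4, 6.87 and 59.9 in control MEFs, where the 6 h value was near background. At 6 h at most 15.8% was left there, and CNOT3-depleted MEFs were at least 4.62-fold higher. The remaining one (1456006_at) was near background on 5 of the 6 arrays. The Bcl2l11 probe sets therefore did not share an order of the cultures after Act. D, and the log2 stabilization of the 3 with no signal near background was −0.23, −1.08 and −0.74.

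Bbc3 encodes PUMA, a BH3-only protein induced by p53, and has 1 probe set. Its signal was 329, 56.3 and 80.9 at 0, 6 and 12 h in CNOT3-depleted MEFs, against 369.6, 84.4 and 115 in control MEFs. It was lower in CNOT3-depleted MEFs at each time, by 1.12-fold, 1.499-fold and 1.43-fold, although at 12 h it was 1.14-fold higher under ribosomal protein scaling, and in both cultures the 12 h signal was above the 6 h signal. Bbc3 kept 17.1% and 24.6% in CNOT3-depleted MEFs, against 22.8% and 31.2% in control MEFs. Of the 11062 genes, 2.62% kept less than Bbc3 in CNOT3-depleted MEFs at 6 h, and 2.40% kept less than Bcl2l11. These 2 members were the ones at or under 25% at 6 h in CNOT3-depleted MEFs, where 4.38% of all genes were.

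Pmaip1 encodes NOXA, which binds and inactivates MCL1, and its 1 probe set went the other way, above its 0 h level. The signal was 3520.1, 5129.7 and 4574 at 0, 6 and 12 h in CNOT3-depleted MEFs, against 2298, 4783 and 4921 in control MEFs. The cultures were 1.53-fold apart at 0 h, with CNOT3-depleted MEFs higher, and within 1.08-fold of each other after Act. D. Relative to 0 h this is 146% and 129.9% in CNOT3-depleted MEFs, against 208% and 214% in control MEFs. At 6 h in control MEFs 99.1% of the 11062 genes had a lower percentage left. These percentages depend on the scaling, since all transcripts are expressed relative to what remained. Under the ribosomal protein scaling they were 134% and 114% in CNOT3-depleted MEFs, against 134% and 116% in control MEFs, all still above 100%, and the log2 stabilization was −0.02 in place of −0.62. The signals of the 6 and 12 h arrays were then 1.53-fold and 1.51-fold higher in CNOT3-depleted MEFs, as at 0 h.

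Bad encodes a BH3-only protein that binds BCL2 and BCL-XL when survival signals are withdrawn. At its brightest probe set (1416583_at) the signal was 1478, 1354 and 1779 at 0, 6 and 12 h in CNOT3-depleted MEFs, against 899, 1025 and 1219 in control MEFs, with CNOT3-depleted MEFs higher by 1.64-fold, 1.32-fold and 1.46-fold. The other probe set (1416582_a_at) had 787, 921 and 876 in CNOT3-depleted MEFs, against 862, 878 and 829.8 in control MEFs. The 2 probe sets disagreed at 0 h, where 1416582_a_at was 1.10-fold lower in CNOT3-depleted MEFs. Bad kept most of its signal on every array, between 91.6% and 120.3% left in CNOT3-depleted MEFs and between 96.3% and 136% in control MEFs over both probe sets. Under ribosomal protein scaling the brightest probe set kept 83.9% and 105% in CNOT3-depleted MEFs, against 73.5% and 73.7% in control MEFs, which turns the order of the cultures.

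**Figure D2:**
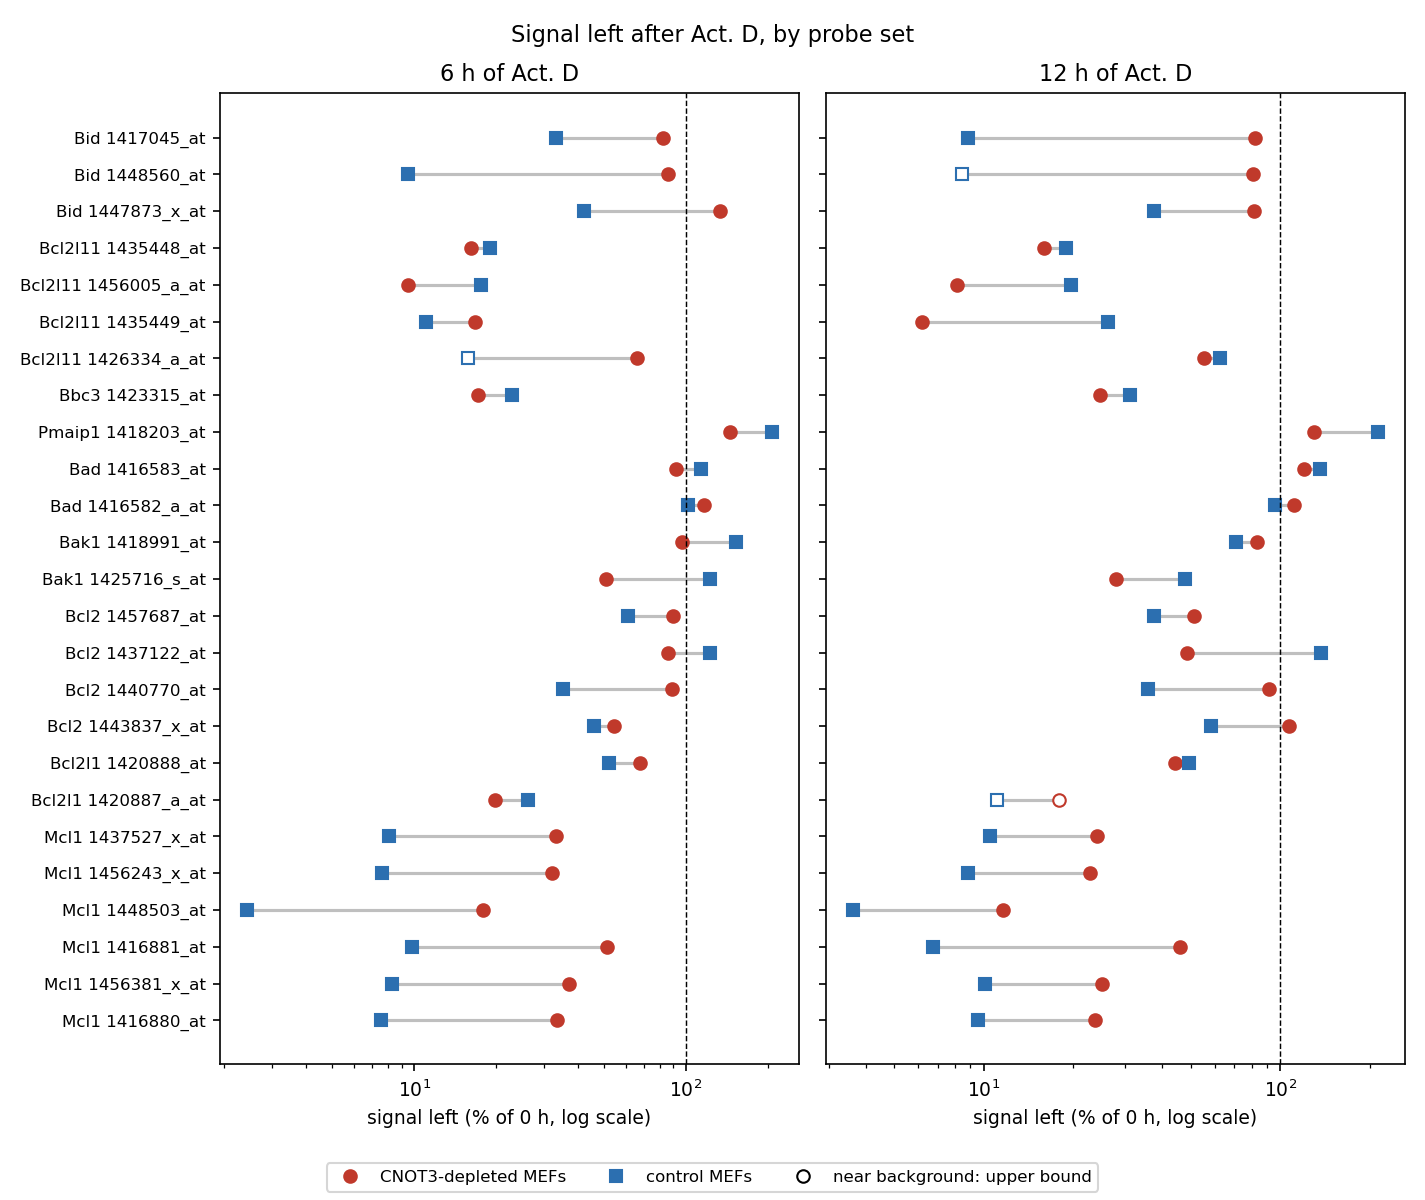
Signal left after 6 h of Act. D (left panel) and 12 h (right panel) as a percentage of 0 h (log axis) for the 25 of 29 probe sets of the 9 genes that reached the median 0 h signal, with CNOT3-depleted MEFs as red circles, control MEFs as blue squares, open symbols for upper bounds near background and a dashed line at 100%. The red circles lie far to the right of the blue squares for the 3 probe sets of Bid and the 6 of Mcl1 at both times, and on either side for Bcl2l11 and Bcl2.

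Bak1, the effector that could be read, encodes the pore-forming protein that resides on the outer mitochondrial membrane. Its brightest probe set (1418991_at) had 395, 382 and 328 at 0, 6 and 12 h in CNOT3-depleted MEFs, against 308, 469.6 and 219 in control MEFs. CNOT3-depleted MEFs were higher at 0 h (1.28-fold) and at 12 h (1.4995-fold) and lower at 6 h (1.23-fold), where ribosomal protein scaling turned the direction to 1.16-fold higher. The dimmer probe set (1425716_s_at) had 148, 75.2 and 41.2 in CNOT3-depleted MEFs, against 44.9, 55.2 and 21.5 in control MEFs, and was 3.29-fold higher at 0 h. Both probe sets were higher in CNOT3-depleted MEFs at 0 and 12 h but their sizes differed, and at 6 h they had opposite signs. Bak1 kept 96.8% and 83.2% in CNOT3-depleted MEFs, against 152% and 71.1% in control MEFs at the brightest probe set.

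Among the survival genes, Bcl2, the founding member, was lower in CNOT3-depleted MEFs. Its brightest probe set (1457687_at) had 248, 223 and 127 at 0, 6 and 12 h in CNOT3-depleted MEFs, against 542, 333 and 204 in control MEFs. The difference was 2.18-fold at 0 h, 1.496-fold at 6 h and 1.61-fold at 12 h, and 1.003% of the 11062 genes had a lower fold at 0 h. All 4 other probe sets of Bcl2 were also lower in CNOT3-depleted MEFs at each time. At 0 h they had 76.7 against 100.3 (1437122_at), 46.4 against 161 (1440770_at), 39.3 against 95.0 (1422938_at) and 41.3 against 132 (1443837_x_at) in CNOT3-depleted and control MEFs, that is 1.31-fold, 3.48-fold, 2.42-fold and 3.19-fold lower. The 5 probe sets thus shared their direction at 0 h, which held under each scaling tried, and differed in size. After Act. D the direction depended on the scaling, since the brightest probe set was 1.01-fold higher in CNOT3-depleted MEFs at 12 h under ribosomal protein scaling.

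After Act. D the Bcl2 probe sets did not share an order of the fractions left. The brightest kept 89.7% and 51.0% in CNOT3-depleted MEFs, against 61.5% and 37.6% in control MEFs, a log2 stabilization of 0.49. For 1437122_at the percentages left were 86.0% and 48.4% in CNOT3-depleted MEFs, against 123% and 137% in control MEFs. For 1440770_at they were 88.7% and 91.7% in CNOT3-depleted MEFs, against 35.3% and 35.7% in control MEFs, which meets the rule for stabilization with a log2 value of 1.35. There the CNOT3-depleted signals of 46.4, 41.2 and 42.6 hardly moved and were under the control signals of 161, 56.9 and 57.6 at each time. The probe set 1422938_at was near background at 6 h in CNOT3-depleted MEFs, at least 9.23-fold lower than in control MEFs, and 1443837_x_at kept 54.3% and 107% in CNOT3-depleted MEFs, against 46.0% and 58.3% in control MEFs.

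Bcl2l1 encodes BCL-XL and its brightest probe set (1420888_at) had 872, 591 and 386 at 0, 6 and 12 h in CNOT3-depleted MEFs, against 726, 379 and 358 in control MEFs. CNOT3-depleted MEFs were higher by 1.20-fold, 1.56-fold and 1.08-fold, with 67.8% and 44.3% left, against 52.2% and 49.3% in control MEFs. Under quantile normalization the ratio of CNOT3-depleted to control MEFs was 1.19 at 6 h and 0.764 at 12 h. The log2 stabilization of 0.11 had the opposite sign, −0.31, under quantile normalization, and so did the log2 fold at 0 h with the median over all probe sets, −0.42 in place of 0.26. The dimmer probe set 1420887_a_at had 75.6, 15.0 and 5.35 in CNOT3-depleted MEFs, against 162, 42.4 and 9.90 in control MEFs. It was 2.14-fold lower in CNOT3-depleted MEFs at 0 h and near background in both cultures at 12 h. The 2 probe sets therefore disagreed at 0 h, and the remaining 2 probe sets of Bcl2l1 were near background on 4 of the 6 arrays each.

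Mcl1 encodes a survival protein with a short life, and more of its signal was left after Act. D in CNOT3-depleted MEFs than in control MEFs at each of its probe sets. At the brightest probe set (1437527_x_at) the signal was 5239.7, 1741 and 1264 at 0, 6 and 12 h in CNOT3-depleted MEFs, against 4597, 373 and 483 in control MEFs. The probe set 1448503_at had 6915, 1237 and 804 in CNOT3-depleted MEFs, against 5821, 141 and 210.4 in control MEFs. The probe set 1416881_at had 2929, 1495 and 1348 in CNOT3-depleted MEFs, against 2106, 207 and 142 in control MEFs. All 6 Mcl1 probe sets were higher in CNOT3-depleted MEFs on every pair of arrays, by 1.02-fold to 1.39-fold at 0 h, 4.57-fold to 8.79-fold at 6 h and 2.53-fold to 9.52-fold at 12 h. The signal left ranged over them from 17.9% to 51.0% at 6 h and from 11.6% to 46.0% at 12 h in CNOT3-depleted MEFs. In control MEFs it ranged from 2.42% to 9.85% at 6 h and from 3.61% to 10.5% at 12 h. As deposited, the ranges of the cultures did not overlap at either time. Under quantile normalization they overlapped at 12 h, with 9.40% left in CNOT3-depleted MEFs at 1448503_at and 13.8% in control MEFs at 1456381_x_at. At each single probe set the percentage in CNOT3-depleted MEFs was still the higher.

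As deposited, the fraction of Mcl1 left over the 6 probe sets was 4.10 to 7.40 times that of control MEFs at 6 h. At 12 h it was 2.30 to 6.84 times. Under quantile normalization only 1416881_at and 1448503_at kept at least 2.0 times the control fraction at both times. The log2 stabilization was 1.62 at the brightest, with 10.3% of the 11062 genes above it, and 2.57 at the highest, 1416881_at. At the brightest it was 1.12 under quantile normalization and 2.22 under ribosomal protein scaling. Only 1416881_at met the full rule for stabilization, with a 6 h level of 51.0% just inside the lower limit of the ratio, and the other 5 were at 37.2% or less. Its 6 h level was 46.3% under quantile normalization and 46.8% under ribosomal protein scaling, so that it missed the rule under both. It was 50.6% when scaled by the brightest ribosomal protein probe sets, chosen after seeing the data, and met the rule there. Without the limit on the 6 h to 0 h ratio Mcl1 joined Bid as deposited, so that 2 of the 9 members kept at least 2.0 times the control fraction at both times, against 13.0% of the 11062 genes. Under quantile normalization neither did so at its brightest probe set. There Bid kept 87.5% against 48.7% in control MEFs at 6 h, and Mcl1 19.9% against 13.0% at 12 h. Counted by probe set, 5 of 25 were stabilized (3 of Bid, 1 of Mcl1 and 1 of Bcl2), against 8.89% of all probe sets at or above the median, and 10 of 25 without the ratio limit, against 11.1%. Under quantile normalization these counts were 3 and 5 of 25, against 6.79% and 8.30% of all probe sets. Probe sets of 1 gene share their transcript and are not separate observations.

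**Figure D3:**
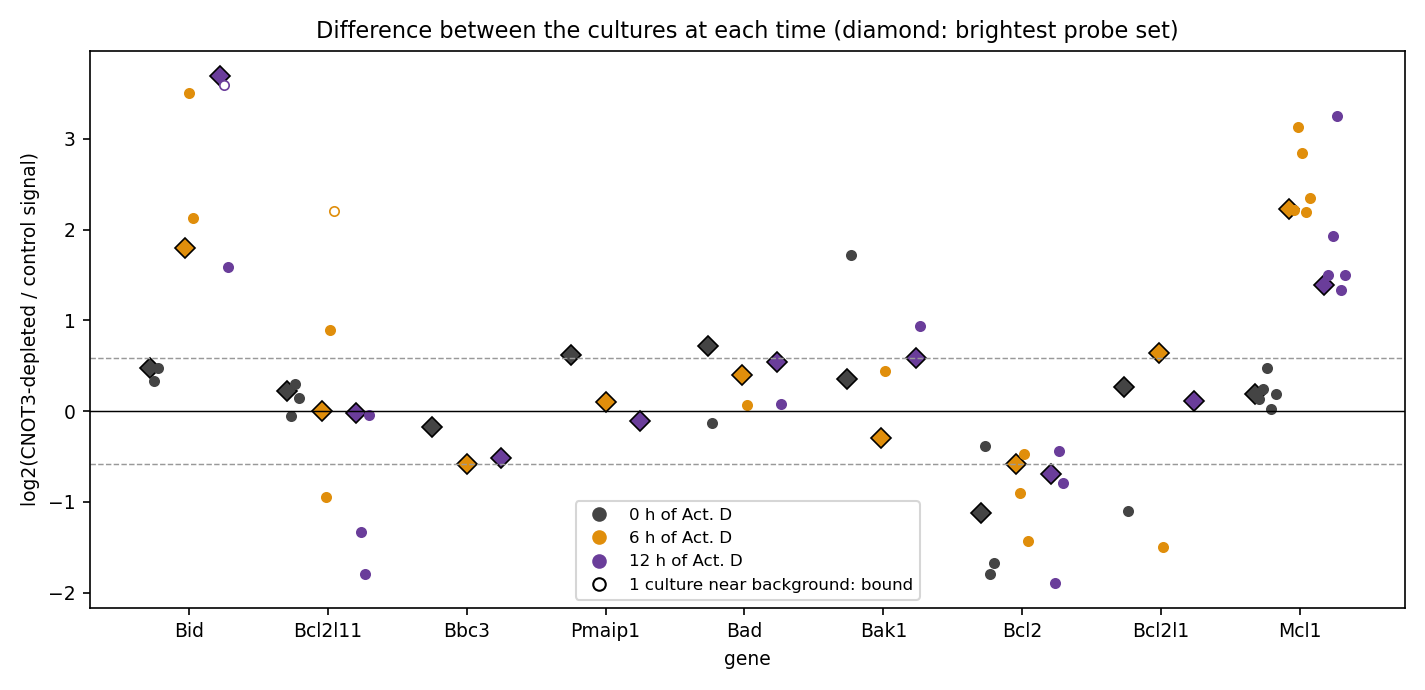
Log2 ratio of the CNOT3-depleted to the control signal at 0 h (grey), 6 h (orange) and 12 h (purple) of Act. D for the 25 probe sets of the 9 genes at or above the median signal, with diamonds for the brightest probe set, open symbols for bounds where 1 culture was near background, and dashed lines at 1.5-fold. Bid and Mcl1 lie under the upper 1.5-fold line at 0 h and far above it after Act. D, up to 12.9-fold and 9.52-fold, while the points of Bcl2 lie under 0 at all times in the signals as deposited (under ribosomal protein scaling the brightest was 1.01-fold higher at 12 h).

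Taken by kind at 0 h, 2 of the 5 BH3-only genes were higher in CNOT3-depleted MEFs by over 1.5-fold (Pmaip1 and Bad), and 1 of the 3 survival genes was lower by over 1.5-fold (Bcl2). As a share of the 9 members these 2 and 1 stand beside 19.5% of all genes higher and 15.7% lower. By probe set 4 of 29 were higher and 7 lower, against 18.6% and 22.1% of all probe sets. At 6 h 3 members were higher (Bid, Bcl2l1 and Mcl1) and 0 lower, against 32.3% and 19.7% of all genes. At 12 h 2 were higher (Bid and Mcl1) and 1 lower (Bcl2), against 33.4% and 29.7%. The counts after Act. D depended on the scaling. Under ribosomal protein scaling 5 members were higher at 6 h (Bid, Bcl2l1, Mcl1, Bad and Pmaip1) and 7 at 12 h (these and Bak1 and Bcl2l11), against 52.5% and 53.6% of all genes. At either time 0 members were lower there, against 9.5% and 12.5% of all genes. Under quantile normalization 2 were higher at each time (Bid and Mcl1), against 28.6% at 6 h and 33.1% at 12 h of all genes. Lower were 3 at 6 h (Bcl2, Bak1 and Bbc3), against 21.8% of all genes, and 1 at 12 h (Bcl2), against 27.4%. Read beside these shares, the counts are no result about the family.

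In the signals as deposited, the typical member kept less of its signal than the typical gene. The median over the 9 members was 82.5% left at 6 h and 51.0% at 12 h in CNOT3-depleted MEFs, where the 11062 genes had medians of 97.6% and 95.1%. In control MEFs the members' medians were 52.2% and 37.6%, where all genes had 87.0% and 72.8%. At or under 25% at 12 h were 3 members in CNOT3-depleted MEFs (Bcl2l11, Bbc3 and Mcl1), against 6.68% of all genes. In control MEFs 3 members were at or under 25% at 6 h (Bcl2l11, Bbc3 and Mcl1), against 13.4% of all genes, and 3 at 12 h (Bid, Bcl2l11 and Mcl1), against 19.9%. The place of Bbc3 near this limit depended on the scaling, with 21.6% at 12 h in CNOT3-depleted MEFs and 17.0% in control MEFs under ribosomal protein scaling, and 38.0% and 48.7% under quantile normalization. Under ribosomal protein scaling 5 members were at or under 25% at 12 h in control MEFs (the same 3 and Bbc3 and Bcl2), against 35.5% of all genes. Under quantile normalization 1 member was at or under 25% at 6 h in control MEFs (Mcl1), against 9.16% of all genes. At 12 h 2 were (Bid and Mcl1), against 13.9%. In CNOT3-depleted MEFs 2 were at 12 h (Bcl2l11 and Mcl1), against 4.33%.

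The median log2 fold at 0 h over the 9 members was 0.26, beside 0.08 over the 11062 genes, and the median log2 stabilization was −0.21, beside 0.13. In order of log2 stabilization the members ran from Pmaip1 (−0.62) through Bbc3 (−0.38), Bad (−0.25), Bcl2l11 (−0.23), Bak1 (−0.21), Bcl2l1 (0.11) and Bcl2 (0.49) to Mcl1 (1.62) and Bid (2.26). With 1 array per condition there is no spread against which neighbours in this order could be told apart. For Bid, Mcl1 and Bcl2 the sign was positive under each scaling tried and for Pmaip1 negative. For Bcl2l11, Bbc3, Bad and Bak1 it turned positive under both ribosomal protein scalings, which moved the median of all genes by 0.60 and 0.48. The arrays at 0 h enter both the fold at 0 h and the stabilization, so these measures are not independent.

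**Figure D4:**
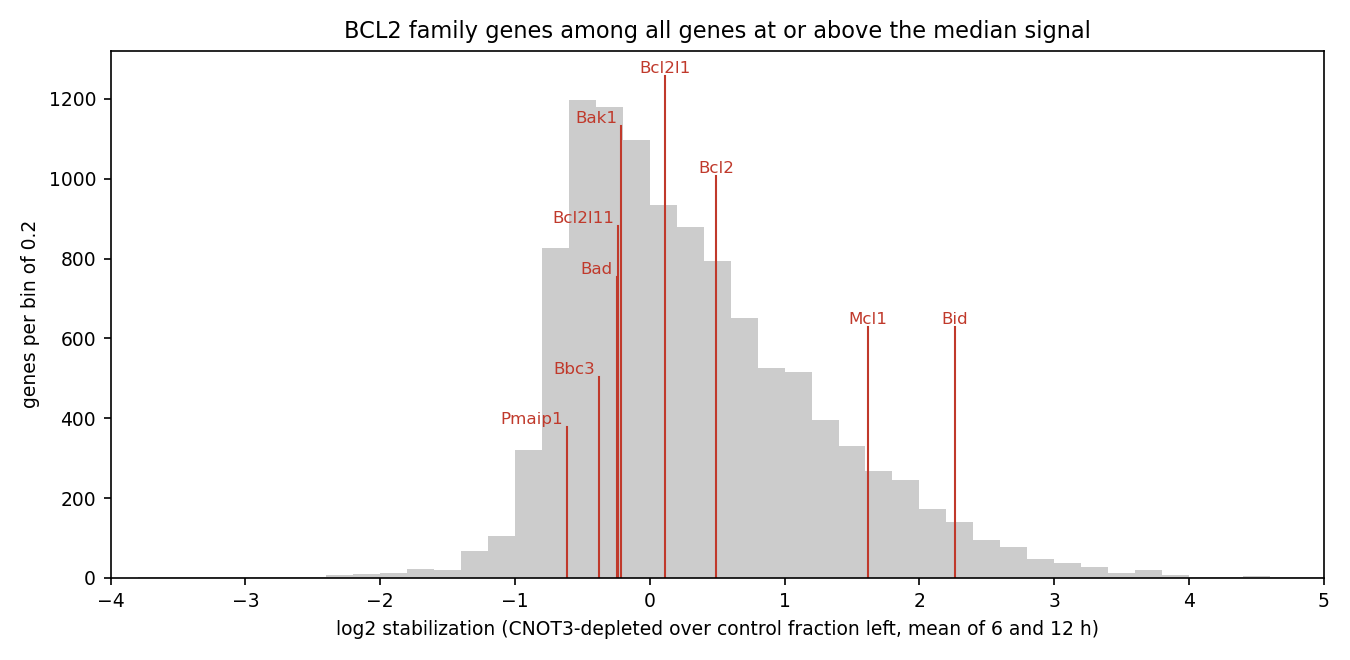
Histogram of the log2 stabilization of the 11062 named genes that reached the median 0 h signal, each at its brightest probe set (grey, genes per bin of 0.2), with red lines at the 9 members, whose heights have no meaning. Mcl1 (1.62) and Bid (2.26) lie in the right tail and the other 7 members lie between −0.62 and 0.49.

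The genes most like Bid over the 6 arrays, by Euclidean distance between log2 signals centred on their own mean, were Pank1, Rilpl1 and Tjp1 among 11053 genes compared. Their distances were 0.173, 0.266 and 0.305, where the members were left out. Pank1, a pantothenate kinase gene of coenzyme A synthesis, had 853, 682 and 705 in CNOT3-depleted MEFs, against 589, 186 and 47.5 in control MEFs. Rilpl1 had 1395, 1184 and 1251 in CNOT3-depleted MEFs, against 898, 339 and 102 in control MEFs. Tjp1, which encodes the tight junction protein ZO-1, had 3484, 3495 and 3361 in CNOT3-depleted MEFs, against 2987, 874 and 285 in control MEFs. In each of them the signal stayed at 80.0% or more of its 0 h level in CNOT3-depleted MEFs and was lower at each later time in control MEFs. This likeness to Bid follows from how the genes were picked and is no separate result.

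Upstream of Bid, 7 genes act in its activation at death receptors and its docking at mitochondria, and all were measured. At 0 h 1 was higher (Fas) and 1 lower (Cflar), 2 were stabilized (Fadd and Tnfrsf1a), and the medians were 0.11 for the log2 fold at 0 h and 0.78 for the log2 stabilization, beside 0.08 and 0.13 over the 11062 genes, since all 7 reached the median signal. Over all 18193 genes 19.5% were higher and 15.7% lower, and of the 11062 at or above the median signal 10.6% were stabilized. These shares are the background for this count and those of the lists that follow. Where a list holds genes under the median signal, its medians stand beside 0.06 and 0.02 over all 18193 genes. All list medians are of the signals as deposited. The 2 ribosomal protein scalings raise the log2 stabilization of every gene alike, by 0.60 and 0.48. The sign of a list median can therefore depend on the scaling. Fadd, the adaptor that recruits caspases to death receptors, had 398, 368 and 384 at 0, 6 and 12 h in CNOT3-depleted MEFs, against 393, 145 and 112 in control MEFs. The cultures were level at 0 h and apart after Act. D. Fas, a death receptor gene, had 492, 432 and 279 in CNOT3-depleted MEFs, against 198, 63.3 and 112 in control MEFs, 2.48-fold higher at 0 h. Cflar, which encodes the caspase inhibitor FLIP, had 286, 227 and 158 in CNOT3-depleted MEFs, against 649.7, 295 and 212 in control MEFs, 2.27-fold lower at 0 h.

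Downstream of the pore, 10 of 12 listed genes of the apoptosome, the caspases and other mitochondrial proteins of cell death were measured. Of the 10, 1 was higher at 0 h (Endog), 0 were lower and 0 were stabilized. Their medians were 0.15 for the log2 fold at 0 h and 0.41 for the log2 stabilization. Apaf1, the scaffold of the apoptosome, had 1444, 657 and 543 in CNOT3-depleted MEFs, against 1363, 196 and 76.0 in control MEFs. It kept 45.5% and 37.6% in CNOT3-depleted MEFs, against 14.4% and 5.58% in control MEFs, and like Mcl1 it missed the rule by its 6 h to 0 h ratio alone. Endog, a mitochondrial nuclease gene, had 756, 679 and 752 in CNOT3-depleted MEFs, against 368, 264 and 132 in control MEFs, 2.06-fold higher at 0 h. Aifm1, which encodes a mitochondrial flavoprotein released in cell death, kept 107% and 107% in CNOT3-depleted MEFs, against 73.7% and 36.2% in control MEFs. Cycs, the gene of cytochrome c, was 1.43-fold lower at 0 h, with 12034 in CNOT3-depleted MEFs and 17200.2 in control MEFs.

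Of the other BCL2 family genes, 11 of 16 were measured. At 0 h 4 were higher (Bmf, Bnip3, Bik and Bcl2l15) and 2 lower (Bcl2l14 and Hrk), of which only Bmf and Bnip3 were at or above the median signal, and 0 were stabilized. Bmf, a BH3-only gene, had 120.1, 18.9 and 19.6 in CNOT3-depleted MEFs, against 55.3, 20.0 and 41.2 in control MEFs. Bnip3, which acts in mitochondrial autophagy, had 2423, 3330.3 and 3978 in CNOT3-depleted MEFs, against 1178, 1949 and 2418 in control MEFs, 2.06-fold higher at 0 h. Bcl2l13, a mitophagy receptor gene, kept 134% and 126% in CNOT3-depleted MEFs, against 87.1% and 60.8% in control MEFs. The median log2 fold at 0 h of the 11 genes was −0.07 and their median log2 stabilization −0.25. Only 6 of the 11 reached the median signal, so that the others could not be called stabilized.

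Regulators of the members were read as 3 lists. Among 7 of 8 measured transcription factors of BH3-only genes and their regulators, 1 was higher (Mdm2) and 1 lower (Trp73, under the median signal), 0 were stabilized, and the medians were −0.11 for the log2 fold at 0 h and −0.27 for the log2 stabilization. Mdm2, the p53 ubiquitin ligase gene, had 3629.7, 951 and 611 in CNOT3-depleted MEFs, against 2376, 809 and 719 in control MEFs. Foxo3, which drives Bcl2l11 and Bbc3 transcription, kept 20.5% and 8.16% in CNOT3-depleted MEFs, against 3.83% and 4.82% in control MEFs, and Jun, an immediate-early factor, kept 13.4% and 10.6% in CNOT3-depleted MEFs, against 20.0% and 34.0% in control MEFs. Of the 7 genes that act on the stability of the MCL1 protein 1 was higher (Btrc, 2.26-fold), 0 were lower and 0 were stabilized, with a median log2 fold at 0 h of −0.06 and a median log2 stabilization of 0.03. Usp9x, the deubiquitinase of MCL1, had 1089, 1053 and 802 in CNOT3-depleted MEFs, against 1531, 1442 and 879.9 in control MEFs, 1.41-fold lower at 0 h. A list of 8 genes was drawn up for partners of BAX and BAK, but not all of its proteins reside on the outer membrane. Of these 8, 0 were higher, lower or stabilized, with a median log2 fold at 0 h of 0.10 and a median log2 stabilization of −0.33. Opa1, which shapes mitochondrial cristae, kept 101% and 91.6% in CNOT3-depleted MEFs, against 92.7% and 39.4% in control MEFs, and Bag1, which encodes a BCL2-binding cochaperone, kept 132% and 138% in CNOT3-depleted MEFs, against 178% and 257% in control MEFs.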

How the data were processed

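Total RNA of MEFs was labelled with biotin and hybridized to GeneChips. The values deposited by the authors are linear intensity, as MAS5 signals for each probe set, and neither the MAS5 version nor its scaling target is stated there. A floor of 1 was set, and the arrays were not rescaled. Of 45037 probe sets the platform annotation names 1 gene for 34945, several for 932 and none for 9160, and the gene identifiers of all 29 member probe sets have the same symbol in the reference list. Each gene was read at its brightest probe set (mean log2 signal of the 6 arrays). A signal below its array's 25th percentile was taken as near background, and folds or percentages that rest on them are bounds. The text names all members, in each pathway list up to 2 genes with the largest fold at 0 h and up to 2 with the largest stabilization, the 3 genes nearest to Bid, and Cnot3. Names beside a count that fall outside this rule were picked with their values in view. The members and gene lists were chosen with earlier results of these data known. Counting steps were tested on simulated data, and computed with Python 3.11.15, numpy 2.4.6 and pandas 2.3.3. Alternatives were quantile normalization, division by ribosomal protein signals (102 probe sets), a pseudocount of 16, the median over all probe sets, leaving out probe sets marked _x_at or _s_at, other signal filters, thresholds and times.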

Additional observations from a re-analysis of the deposited data

How the results depend on the processing

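No paired analysis was possible because each condition has 1 array. The count of members more than 1.5-fold higher at 0 h was 2, and became 1 with the median over all probe sets and 0 with a 2-fold threshold. The count stabilized was 1 (Bid), and became 0 with quantile normalization, 2 (Bid and Bcl2) with ribosomal protein scaling, and 2 (Bid and Mcl1) with no limit on the 6 h to 0 h ratio. The median log2 stabilization of the members was −0.21, and became 0.39 with ribosomal protein scaling, 0.27 with the scaling by the brightest ribosomal protein probe sets, chosen after seeing the data, and −0.020 with the median over all probe sets. Counts after Act. D and by probe set were recomputed under the scalings after seeing the data. With ribosomal protein scaling, members higher became 5 in place of 3 at 6 h and 7 in place of 2 at 12 h (6 at 12 h with the brightest ribosomal protein probe sets). The shares of all genes higher moved too, to 52.5% in place of 32.3% and 53.6% in place of 33.4% (51.5% at 12 h with the brightest). Members lower at 12 h became 0 in place of 1, and members at or under 25% left at 12 h in control MEFs 5 in place of 3, with either ribosomal protein scaling. Of all genes, 12.5% and 13.4% were then lower at 12 h, in place of 29.7%. At or under 25% at 12 h in control MEFs were 35.5% and 32.4%, in place of 19.9%. With quantile normalization, members lower at 6 h became 3 in place of 0, and members at or under 25% left at 6 h became 1 in CNOT3-depleted MEFs (in place of 2) and 1 in control MEFs (in place of 3). The shares of all genes were then 21.8% in place of 19.7%, 3.14% in place of 4.38%, and 9.16% in place of 13.4%. Probe sets stabilized under quantile normalization became 3 in place of 5, and those with 2 times the control fraction left 5 in place of 10. Over all probe sets these shares were 6.79% in place of 8.89%, and 8.30% in place of 11.1%. The ribosomal protein scalings moved the median of all genes by 0.60 and 0.48, and the causes of the other moves were not tested. The count of members lower at 0 h stayed at 1 and the count with the cultures exchanged at 0 under every alternative run. Of the log2 folds of single members at 0 h, 49 of the values under alternatives moved by at most 0.1 and 5 by more, and of the log2 stabilizations 31 and 41. With no replicates, the spread that a repeat of either culture would show is unknown, and values of dim probe sets are the least certain.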
